A study of Bos taurus with 7 samples.

Results

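The citric acid cycle genes CS, IDH3A, IDH3B, IDH3G, OGDH, SUCLG1, FH and MDH2, together with PDHA1 of the pyruvate dehydrogenase complex that feeds the cycle, were followed in the rumen epithelium of Holstein calves. They were chosen by gene name: each of the 9 symbols matched 1 probe among the 15008 probes of a bovine Agilent array, and all 9 were among the 12570 genes tested. Calves with forage in the diet (HAY, calves 9, 10 and 13) were compared with calves without it (CON, calves 8, 11, 12 and 14). The design text names a time of 3 weeks after weaning, which can be read as that of the division into groups or of sampling, and both groups belong to a study of forage and calf starter, ruminal pH and the weaning transition. Each array held the total RNA of 1 calf. The labels give no age, sex or pen of the calves.

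The citric acid cycle oxidises the acetyl group of acetyl-CoA in the mitochondrial matrix and passes the electrons to the respiratory chain. Pyruvate dehydrogenase, citrate synthase, isocitrate dehydrogenase and the 2-oxoglutarate dehydrogenase complex are its main control points. The rumen epithelium absorbs acids such as butyrate that microbes release, and burns part of them, so that much of the acetyl-CoA entering the cycle in this tissue comes from fatty acids and not from glucose. Another part of the butyrate leaves the tissue as ketone bodies.

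Each gene was read by 1 probe of 60 bases, at the following places of UMD_3.1 as the files give them. The probe of PDHA1 lies on chromosome X (130883898 to 130883957), that of CS on chromosome 5 (57388016 to 57388075) and that of IDH3A on chromosome 21 (31079789 to 31079848). IDH3B was read on chromosome 13 (52983622 to 52983681), IDH3G on chromosome X (39916925 to 39916982) and OGDH on chromosome 4 (77458462 to 77458500). SUCLG1 was read on chromosome 11 (50453342 to 50453401), FH on chromosome 16 (36086700 to 36086759) and MDH2 on chromosome 25 (34778961 to 34779020). The intervals listed for OGDH and IDH3G cover 39 and 58 bases, fewer than the 60 of the probe. Exons and UTRs of UMD_3.1 were not used here to place them further. The MDH2 probe was designed on an expressed sequence tag and the other 8 on RefSeq transcripts, and the file describes the IDH3B probe as one of transcript variant C. The longest run of bases shared by any of the 36 pairs of these probes, on either strand, was 8 bases, and the 3 isocitrate dehydrogenase subunits were thus read by unlike sequences.

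The probes of the 2 genes with the shortest listed intervals, OGDH and IDH3G, and that of PDHA1, the entry enzyme, are shown whole from 5′ to 3′ as the files list them. No base is set in capitals in these.
PDHA1: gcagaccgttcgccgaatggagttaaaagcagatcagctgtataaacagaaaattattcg
IDH3G: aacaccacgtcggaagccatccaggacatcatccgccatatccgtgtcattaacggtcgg
OGDH: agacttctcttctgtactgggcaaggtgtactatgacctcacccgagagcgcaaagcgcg

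The probes of IDH3B and SUCLG1, the genes with the smallest p-values among the 9, hold the hexamer AATAAA, which is known as a polyadenylation signal at the end of many transcripts. A stretch of 30 bases of each is shown, with the hexamer in capitals. It was searched for on the strand of the probe, and 9.51% of all 15008 probes hold it.
IDH3B: gttaagatgtccAATAAAacatggtatgac
SUCLG1: ctaaataagaggagcagccAATAAAtctac

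Between 81.5 and 84.6% of the spots of an array were well above background, and the median probe signal was 212 to 236 intensity units in HAY and 178 to 224 in CON. All 9 genes were well above background on all 7 arrays, and none was saturated. Values below are log2 signals relative to the 75th percentile of signals on the same array, so that 0 is that percentile. Different probes bind with different strength, and levels of different genes are therefore not compared. Detection was also read for 12 markers of squamous epithelium. Of these, 11 were well above background on all 7 arrays, among them KRT5, KRT14 and TP63, and KRT4 was so on 4. This level of detection was also met by 11611 of the 12570 tested genes. It was met by 10 of 10 fibroblast and matrix, 9 of 9 myeloid and 9 of 10 endothelial markers tested. Of the smooth muscle and lymphocyte markers tested, 7 of 8 and 6 of 8 met it. Detection of the squamous markers therefore cannot check the tissue label, because most genes and markers of other cell types were detected too.

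No citric acid cycle gene differed between HAY and CON beyond the spread between calves. None of the 9 passed an adjusted p of 0.05 with limma over all genes, where 1 of 12570 genes (0.00796%) did. None reached an unadjusted p under 0.05, against 1755 of 12570 genes (14.0%), and in none were the groups apart without overlap, against 1487 genes (11.8%), 6.53% with HAY above and 5.30% with HAY below CON. Of the 9 genes, 6 had higher and 3 lower means in HAY, where 54.5% of all tested genes had higher and 45.5% lower means. The median log2 difference (HAY minus CON) over the 9 was 0.14, against 0.03 over all tested genes. Leaving out CON calf 14 gave 0.05, leaving out HAY calf 10 gave 0.06, leaving out CON calf 12 gave 0.09, and quantile normalization gave 0.08. In RNA of a whole tissue, fewer cells of a type and less RNA per cell cannot be told apart.

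The intervals of the fit, which rest on the spread between calves, show how large a difference between the groups the values allow. The groups also lay in different rows of the slide, so the intervals cover forage and slide row together. Each is an interval for 1 gene and is not adjusted for the number of genes. The 95% interval of the difference lay within 2-fold in either direction (log2 of 1) for 9 of 9 genes, against 72.2% of all tested genes. The widest interval was that of CS, whose upper end of 0.97 is close to that bound. The difference was smaller than its own standard error in 6 of 9 genes, against 49.9% of all genes. The plot of differences in the order of the cycle shows these intervals.

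**Figure D1:**
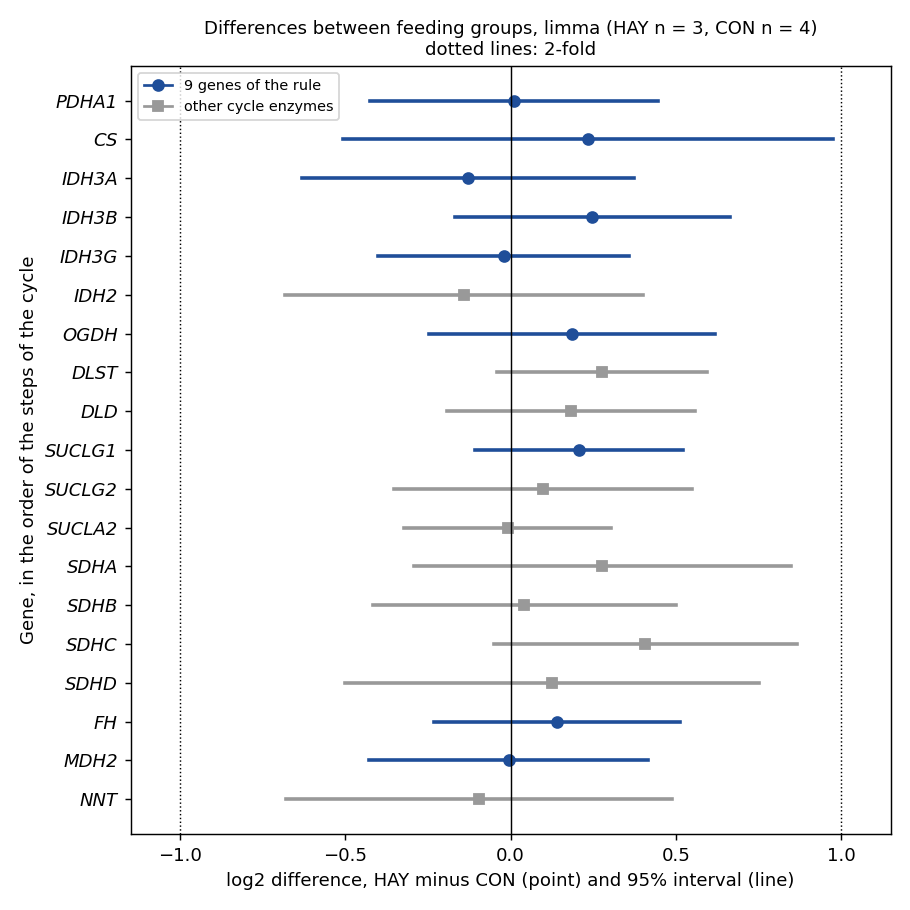
Log2 difference between HAY (n = 3) and CON (n = 4) calves with its 95% interval from limma, for the 9 genes of the rule (blue circles) and 10 other enzymes of or beside the cycle (grey squares, with the transhydrogenase gene NNT last). Every interval covers 0 and lies within the dotted lines at 2-fold.

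PDHA1 encodes the alpha subunit of pyruvate dehydrogenase, the part that removes carbon dioxide from pyruvate and that is switched off by phosphorylation. Its log2 values were -1.72, -1.88 and -2.40 in HAY calves 9, 10 and 13, against -2.06, -1.88, -1.97 and -2.13 in CON calves 8, 11, 12 and 14. HAY calf 9 was the highest and HAY calf 13 the lowest of all 7, so that the CON calves lay between them. The means were -2.00 ± 0.36 in HAY and -2.01 ± 0.11 in CON (SD, n = 3 and 4), with a log2 difference of 0.01 (SE 0.19, limma adjusted p = 0.986). Leaving out HAY calf 13 gave 0.21, and leaving out HAY calf 9 gave -0.13.

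CS, citrate synthase, joins acetyl-CoA to oxaloacetate in the first step of the cycle. HAY calves 9, 10 and 13 had log2 values of 1.38, 0.95 and 1.22, against 1.30, 0.59, 0.32 and 1.58 in CON calves 8, 11, 12 and 14. The CON calves spanned the whole range, with calf 14 highest and calf 12 lowest, a 2.39-fold span that was the widest of the 9 genes. The HAY mean was 1.18 ± 0.22 and the CON mean 0.95 ± 0.59 (SD), a log2 difference of 0.23 (SE 0.32, limma adjusted p = 0.789, 95% interval -0.51 to 0.97). It was 0.02 without CON calf 12 and 0.44 without CON calf 14.

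IDH3A, IDH3B and IDH3G encode the alpha, beta and gamma subunits of the NAD-dependent isocitrate dehydrogenase, which makes 2-oxoglutarate. The alpha subunit carries the catalytic site, and the beta and gamma subunits take part in its regulation. IDH3A stood at 1.34, 1.20 and 1.54 in HAY calves 9, 10 and 13, against 1.45, 1.14, 1.39 and 1.98 in CON calves 8, 11, 12 and 14. CON calf 14 was the highest and CON calf 11 the lowest, and the HAY calves lay inside their range. The log2 difference was -0.13 (SE 0.22, limma adjusted p = 0.833), and it was 0.03 without CON calf 14.

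IDH3B stood at 3.71, 4.18 and 4.13 in HAY calves 9, 10 and 13, against 3.51, 3.69, 3.91 and 3.92 in CON calves 8, 11, 12 and 14. HAY calves 10 and 13 were above all CON calves, while HAY calf 9 was below CON calves 12 and 14. The log2 difference was 0.25, a 1.19-fold higher mean in HAY (SE 0.18, limma adjusted p = 0.564, 95% interval -0.17 to 0.66). Leaving out HAY calf 9 gave 0.40, leaving out HAY calf 10 gave 0.16, and leaving out calves 8 and 13 together gave 0.10.

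IDH3G stood at 2.52, 2.81 and 2.43 in HAY calves 9, 10 and 13, against 2.37, 2.61, 2.82 and 2.62 in CON calves 8, 11, 12 and 14. The highest value, of CON calf 12, and the lowest, of CON calf 8, both belonged to CON. The log2 difference was -0.02 (SE 0.16, limma adjusted p = 0.969, 95% interval -0.40 to 0.36).

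**Figure D2:**
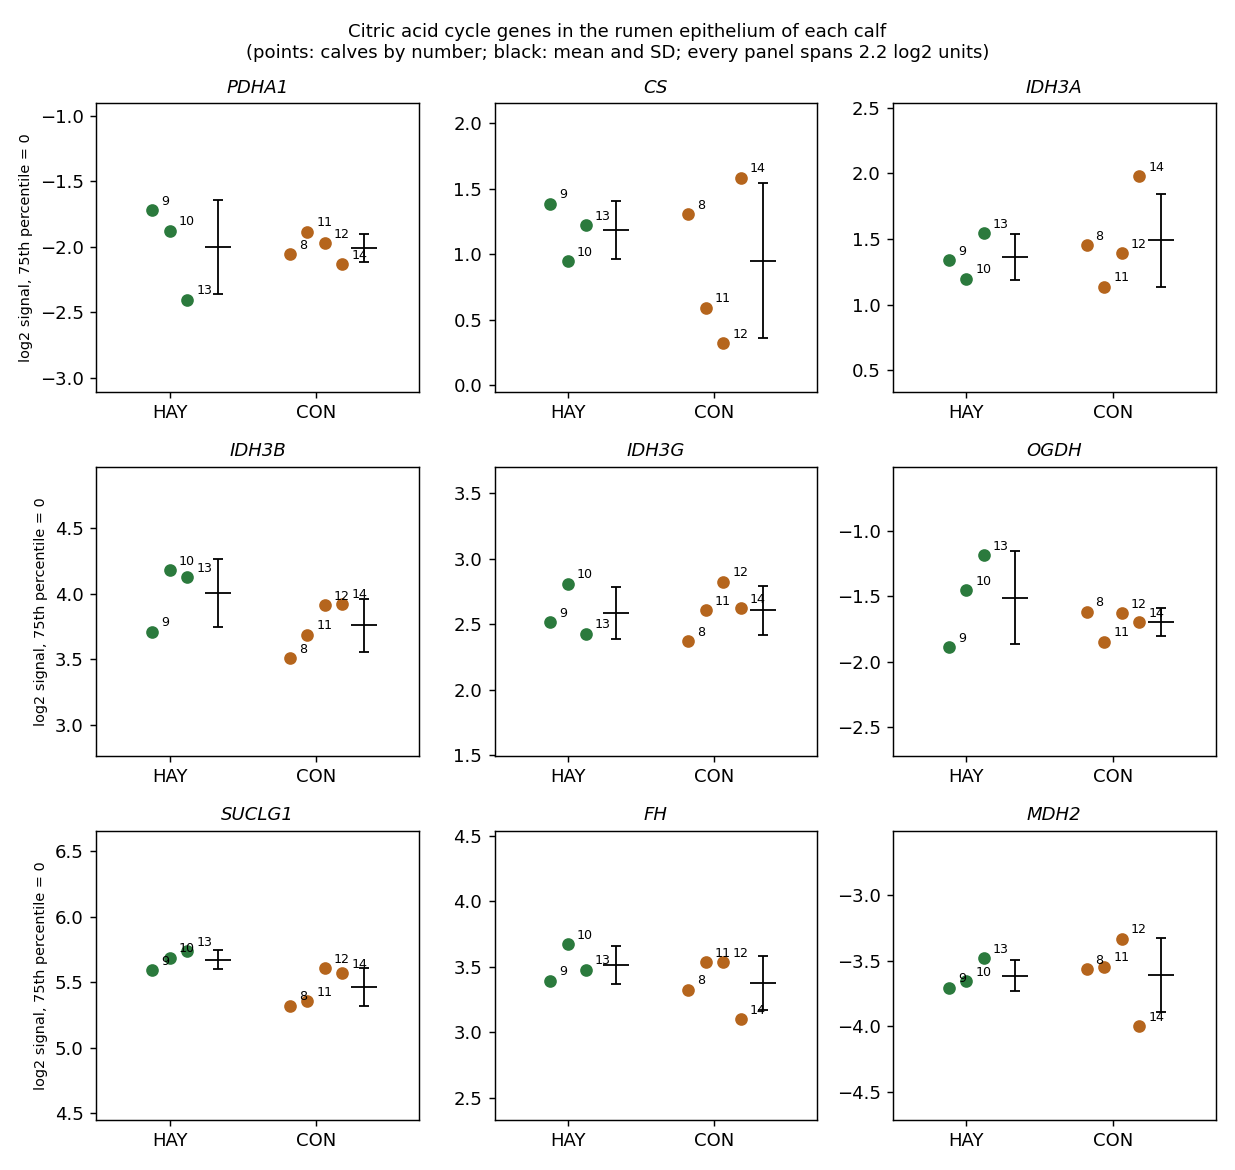
Log2 signal (75th percentile of the array = 0) of the 9 genes in each HAY calf (green) and CON calf (brown), with the calf number beside each point and the mean and SD of each group in black. The groups overlap in all 9 panels, which all span the same number of log2 units.

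OGDH encodes the first enzyme of the 2-oxoglutarate dehydrogenase complex. Its log2 values were -1.89, -1.45 and -1.19 in HAY calves 9, 10 and 13, against -1.62, -1.85, -1.63 and -1.70 in CON calves 8, 11, 12 and 14. As for PDHA1, the HAY calves held both ends of the range, with calf 13 highest and calf 9 lowest, in the order opposite to that of PDHA1. The spread was 0.35 in HAY and 0.11 in CON (SD, n = 3 and 4). The log2 difference was 0.19 (SE 0.19, limma adjusted p = 0.693). Leaving out HAY calf 9 gave 0.38 (limma adjusted p = 0.276), and leaving out HAY calf 13 gave 0.03.

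SUCLG1 encodes the alpha subunit of succinyl-CoA ligase, shared by the ATP-forming and the GTP-forming enzyme. It stood at 5.59, 5.69 and 5.74 in HAY calves 9, 10 and 13, against 5.32, 5.36, 5.61 and 5.57 in CON calves 8, 11, 12 and 14. HAY was above CON in 11 of the 12 pairs of calves, the exception being HAY calf 9 against CON calf 12. The means were 5.67 ± 0.07 in HAY and 5.46 ± 0.15 in CON (SD), a 1.16-fold higher level in HAY (log2 difference 0.21, SE 0.13). This was the smallest p of the 9 genes (limma unadjusted p = 0.163, adjusted p = 0.518), and the 95% interval of the difference ran from -0.11 to 0.52. With quantile normalization the difference was 0.09.

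FH, fumarate hydratase, adds water to fumarate to make malate. Its log2 values were 3.39, 3.67 and 3.48 in HAY calves 9, 10 and 13, against 3.32, 3.53, 3.54 and 3.10 in CON calves 8, 11, 12 and 14. HAY calf 10 was highest and CON calf 14 lowest, with CON calves 11 and 12 above HAY calves 9 and 13. The log2 difference was 0.14 (SE 0.16, limma adjusted p = 0.739). It was 0.05 without CON calf 14 and 0.04 with quantile normalization.

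MDH2, the mitochondrial malate dehydrogenase, closes the cycle by making oxaloacetate again. Its probe stood at -3.71, -3.66 and -3.48 in HAY calves 9, 10 and 13, against -3.56, -3.55, -3.33 and -4.00 in CON calves 8, 11, 12 and 14. CON calf 12 was the highest and CON calf 14 the lowest. The group means were -3.62 ± 0.12 in HAY and -3.61 ± 0.28 in CON (SD), with a log2 difference of -0.01 (SE 0.18, limma adjusted p = 0.994). The probe gave 144 to 196 intensity units in HAY and 122 to 160 in CON. Whether this probe, designed on an expressed sequence tag, reads the MDH2 transcript itself was not tested, and its values are those of the probe the files name MDH2.

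The genes did not rank the calves alike. CON calf 14 had the highest values of CS (0.53 log2 units above the mean of the 7 calves) and IDH3A (0.54 above) and the lowest of FH (-0.33) and MDH2 (-0.39). CON calf 12 had the lowest value of CS (-0.73) and the highest of IDH3G (0.23) and MDH2 (0.28). HAY calf 13 had the highest values of OGDH (0.43) and SUCLG1 (0.18) and the lowest of PDHA1 (-0.40). The mean deviation over the 9 genes was close to 0 in every calf: -0.01, 0.09 and 0.08 in HAY calves 9, 10 and 13, against -0.07, -0.12, -0.00 and 0.03 in CON calves 8, 11, 12 and 14. SUCLG1 lay nearest to the mean of the other 8 genes, at a root mean square distance of 0.09 log2 units over the 7 arrays, and CS farthest, at 0.46. SUCLG1 also had the smallest SD of the 9 genes over the 7 arrays (0.16) and CS the largest (0.45). The distances therefore do not rank likeness of pattern alone.

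**Figure D3:**
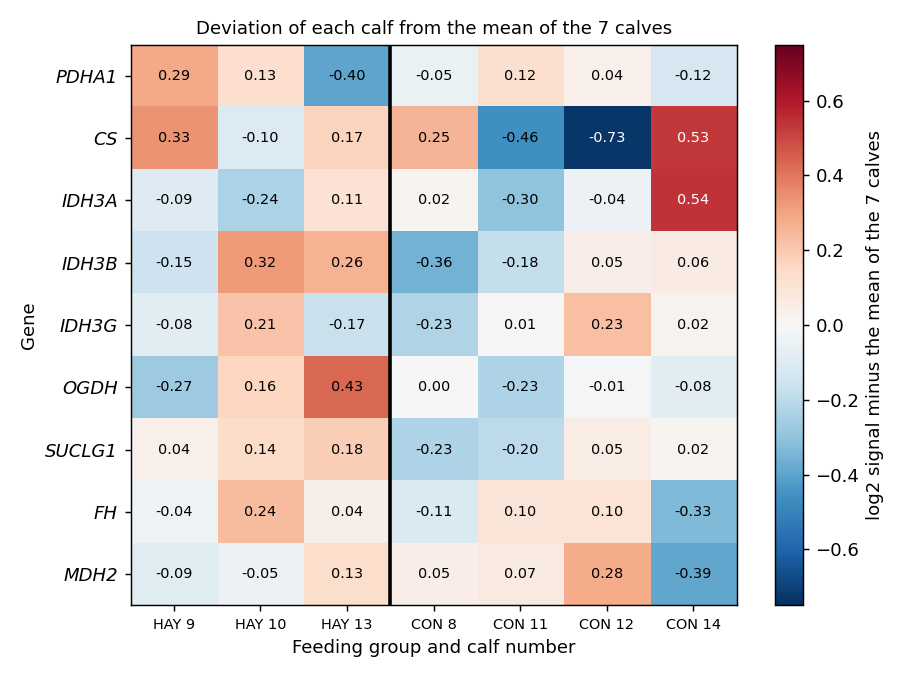
Log2 signal of each gene (rows) in each calf (columns, HAY left of the line and CON right of it) minus the mean of the 7 calves. The deepest colours belong to CS and IDH3A in single CON calves, and no column holds the same colour throughout.

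Genes outside the lists whose deviations over the 7 arrays lay nearest to that mean deviation were COX7B, a subunit of cytochrome c oxidase (root mean square distance 0.037 log2 units), PDE6D (0.040), ATOX1, a copper chaperone (0.041), NAA35 (0.047) and ELOB, elongin B (0.047). They came from 11014 named genes well above background on all 7 arrays. A gene with the same value in every calf would lie at 0.071, and the mean deviation itself ranged only from -0.12 to 0.09.

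Row 1 of the slide held the HAY arrays and row 2 the CON arrays, so that the slide row cannot be told apart from forage provision. Columns 2, 3 and 4 each held 1 array of both groups. Within these columns (HAY calf 9 with CON calf 11, HAY 10 with CON 12, HAY 13 with CON 14) IDH3B differed by 0.02, 0.27 and 0.20, SUCLG1 by 0.24, 0.08 and 0.17 and IDH3G by -0.09, -0.02 and -0.19. These 3 genes kept the sign of the pooled difference in 3 of 3 columns. CS differed by 0.79, 0.62 and -0.36, IDH3A by 0.20, -0.19 and -0.43, and OGDH by -0.04, 0.17 and 0.51. FH differed by -0.14, 0.14 and 0.37, MDH2 by -0.16, -0.33 and 0.52, and PDHA1 by 0.16, 0.09 and -0.27, so that each of these 6 changed sign between columns. With the column as a block, which takes CON calf 8 out of the comparison because it is alone in column 1, the differences ran from -0.14 for IDH3A to 0.35 for CS, and none of the 9 reached an unadjusted limma p under 0.05 (CS, with the smallest, had an adjusted p of 0.609).

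The other enzymes of the cycle were also without a call. Of 12 listed, 11 were tested, and OGDHL was too dim. None reached an unadjusted limma p under 0.05, 8 had higher and 3 lower means in HAY, and the median log2 difference was 0.13. DLST, the succinyltransferase that works beside OGDH in the same complex, had groups that did not overlap, with -1.55, -1.63 and -1.63 in HAY calves 9, 10 and 13 against -1.84, -2.01, -1.99 and -1.67 in CON calves 8, 11, 12 and 14 (difference 0.28, SE 0.14, limma adjusted p = 0.406). Of all tested genes, 6.53% had HAY above CON without overlap. Of the subunits of succinate dehydrogenase, which also serves the respiratory chain, SDHC differed by 0.41 (SE 0.20, limma adjusted p = 0.398) and SDHA by 0.28 (SE 0.25, limma adjusted p = 0.651). Leaving out HAY calf 13 brought SDHA to 0.57, and leaving out HAY calf 10 to 0.07. The median of the list lay between 0.05 (without HAY calf 10) and 0.24 (without CON calf 12) when each calf was left out, and was 0.00 with quantile normalization.

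Around pyruvate dehydrogenase, 11 of 14 listed genes were tested, 5 with higher and 6 with lower means in HAY (median log2 difference -0.06). MPC1, a subunit of the carrier that brings pyruvate into the mitochondrion, was the only 1 at an unadjusted limma p under 0.05, where 6.79% of all tested genes stood there with higher means in HAY. It stood at 4.59, 4.90 and 5.16 in HAY calves 9, 10 and 13, against 4.11, 4.16, 4.60 and 4.41 in CON calves 8, 11, 12 and 14. CON calf 12 lay just above HAY calf 9, and the groups were otherwise apart (log2 difference 0.57, SE 0.19, limma unadjusted p = 0.0201, adjusted p = 0.291). The unadjusted p was over 0.05 in 4 of 17 alternatives. Among the kinases that switch the complex off, PDK4 differed by -0.60 (SE 0.32, limma adjusted p = 0.443) and PDK1 by -0.30 (SE 0.28, limma adjusted p = 0.671), while PDK2 differed by 0.16 (SE 0.17) and PDK3 by 0.01 (SE 0.15). PDK2 and PDK3 are named here after their values were seen. Leaving out HAY calf 13 brought PDK1 to -0.09, leaving out CON calf 14 to -0.51, and leaving out calves 8 and 13 together to -0.01. LIPT1, which transfers lipoate to these complexes, differed by -0.13 (SE 0.13). The PDK4 values were -6.04, -5.55 and -6.43 in HAY calves 9, 10 and 13, against -5.15, -5.11, -5.20 and -6.17 in CON calves 8, 11, 12 and 14. CON calf 14 lay among the HAY calves, and without it the difference was -0.85 (limma adjusted p = 0.202). With normexp background correction the PDK4 difference was -0.32. The median of this list lay between -0.15 and 0.02 when each calf was left out, and was above 0 when HAY calf 9, HAY calf 10 or CON calf 12 was left out.

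The 2 smallest unadjusted p-values of the 5 lists, those of SLC25A13 and ME1, belonged to the list of exits of the cycle and shuttles around it, and no gene of the list passed the adjustment over all genes. Of 19 listed genes 17 were tested, 10 with higher and 7 with lower means in HAY (median log2 difference 0.09), and 4 had higher means at an unadjusted limma p under 0.05, none lower, against 6.79% and 7.17% of all tested genes. SLC25A13, the carrier that exchanges aspartate for glutamate across the inner mitochondrial membrane, stood at -2.02, -2.14 and -1.54 in HAY calves 9, 10 and 13. It stood at -2.85, -3.22, -2.52 and -3.37 in CON calves 8, 11, 12 and 14. The groups did not overlap, where 6.53% of all tested genes had HAY above CON without overlap. The HAY mean was 2.13 times the CON mean (log2 difference 1.09, SE 0.25, limma unadjusted p = 0.00282, adjusted p = 0.210), and the unadjusted p stayed under 0.05 in 17 of 17 alternatives, with differences from 0.87 to 1.25. SLC25A12, the other carrier of this kind, differed by -0.18 (SE 0.18), and is named here after its value was seen.

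The malic enzymes turn malate into pyruvate, ME1 in the cytosol with NADPH as a product and ME2 and ME3 in the mitochondrion. ME1 stood at 4.47, 4.17 and 3.91 in HAY calves 9, 10 and 13, against 3.73, 3.68, 3.66 and 3.31 in CON calves 8, 11, 12 and 14 (log2 difference 0.59, SE 0.18, limma unadjusted p = 0.0136, adjusted p = 0.270). ME2 stood at -0.15, -0.75 and -0.66 in HAY calves 9, 10 and 13, against -1.19, -1.09, -0.88 and -1.04 in CON calves 8, 11, 12 and 14 (log2 difference 0.53, SE 0.18, limma unadjusted p = 0.0201, adjusted p = 0.291). The groups of ME1 and ME2 did not overlap. With SLC25A13 this made 3 of the 17 tested genes of the list, where 6.53% of all tested genes had HAY above CON without overlap. ME3, named here after its value was seen, ran the other way, at -1.74 ± 0.83 in HAY and -1.07 ± 0.45 in CON (SD, n = 3 and 4), a log2 difference of -0.67 (SE 0.41, limma adjusted p = 0.495). Without HAY calf 9 the difference was 0.44 for ME1 and 0.35 for ME2, and the unadjusted p was over 0.05 in 2 and 3 of 17 alternatives. ACO1, the cytosolic aconitase that also acts as an iron-regulatory protein, differed by 0.45 (SE 0.19, limma unadjusted p = 0.0470, adjusted p = 0.354), and its p was over 0.05 in 10 of 17 alternatives. The median of the list lay between 0.02 (without CON calf 11) and 0.26 (without CON calf 14).

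**Figure D4:**
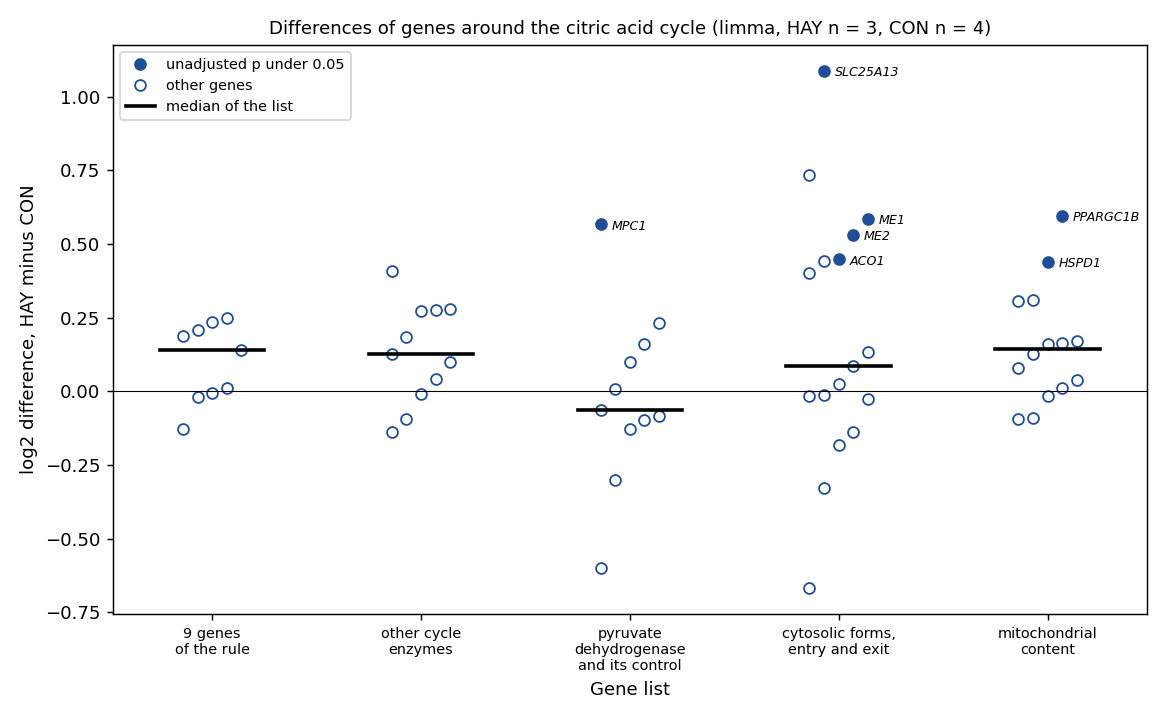
Log2 difference between HAY (n = 3) and CON (n = 4) calves of each tested gene in 5 lists, with the median of each list as a black bar and genes at an unadjusted limma p under 0.05 filled and named. The 9 genes of the rule lie between -0.13 and 0.25, and SLC25A13 at 1.09 is the highest point.

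Genes that speak of mitochondrial content were listed beside the cycle. Of 17 listed genes 14 were tested, 11 with higher and 3 with lower means in HAY (median log2 difference 0.14, or 0.08 without CON calf 8 or HAY calf 10, and 0.04 without calves 8 and 13). Of all tested genes, 54.5% had higher means in HAY. In the list 2 genes had higher means at an unadjusted limma p under 0.05 and none lower, against 6.79% and 7.17% of all tested genes. HSPD1, the mitochondrial chaperonin, differed by 0.44 (SE 0.17, limma unadjusted p = 0.0330, adjusted p = 0.324) and PPARGC1B, a coactivator of mitochondrial genes, by 0.59 (SE 0.24, limma unadjusted p = 0.0373, adjusted p = 0.332). Their unadjusted p was over 0.05 in 8 and 5 of 17 alternatives, and with normexp PPARGC1B differed by 0.29. VDAC1, the pore of the outer membrane, differed by 0.30 (SE 0.14). Its groups did not overlap, where 6.53% of all tested genes had HAY above CON without overlap. HAY calf 10 at 5.807 lay only just above CON calf 12 at 5.804. HSPE1, the partner of HSPD1, differed by 0.16 (SE 0.15), or by 0.04 with quantile normalization. HSPE1 and VDAC1 did not reach an unadjusted p of 0.05.

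Markers of several cell types outside the epithelium had lower means in HAY. All 8 tested smooth muscle markers had lower means in HAY, 6 of them at an unadjusted limma p under 0.05 where 7.17% of all tested genes stood with lower means, with a list score (mean log2 deviation from the mean of the 7 calves) of -1.17 to -0.22 in HAY and 0.01 to 1.60 in CON, and a summed level of 11.7 to 26.8 in HAY and 28.5 to 63.9 in CON on the scale where the 75th percentile of an array is 1. All 10 fibroblast and matrix markers were lower too, 6 of them at that level, with summed levels of 16.2 to 73.3 in HAY and 49.3 to 237 in CON. Of 9 myeloid markers 8 were lower, all 8 at that level, with summed levels of 7.52 to 8.80 in HAY and 11.7 to 19.3 in CON, and of 10 endothelial markers 9 were lower, 3 of them at that level, with 2.43 to 7.28 in HAY and 5.43 to 12.1 in CON. Of the 12 squamous markers 8 were higher and 4 lower in HAY, 1 of the lower at that level. This was KRT4 (log2 difference -2.32, SE 0.37, limma unadjusted p = 0.000321, adjusted p = 0.163). Its groups did not overlap, where 5.30% of all tested genes had HAY below CON without overlap. KRT4 was well above background on only 4 arrays. The summed levels of the squamous markers were 489 to 577 in HAY and 400 to 578 in CON. Of 8 lymphocyte markers 6 were higher and 2 lower, 1 of each at an unadjusted limma p under 0.05. Their summed levels were 12.4 to 18.8 in HAY and 7.57 to 13.8 in CON. A summed level adds positive signals and cannot be 0, so it does not tell whether a cell type was present. CDH5, CD3E and CD79A were well above background on only 3 of the 7 arrays, and DES on 6. The part of these cells in the values of the 9 cycle genes was not tested.

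**Figure D5:**
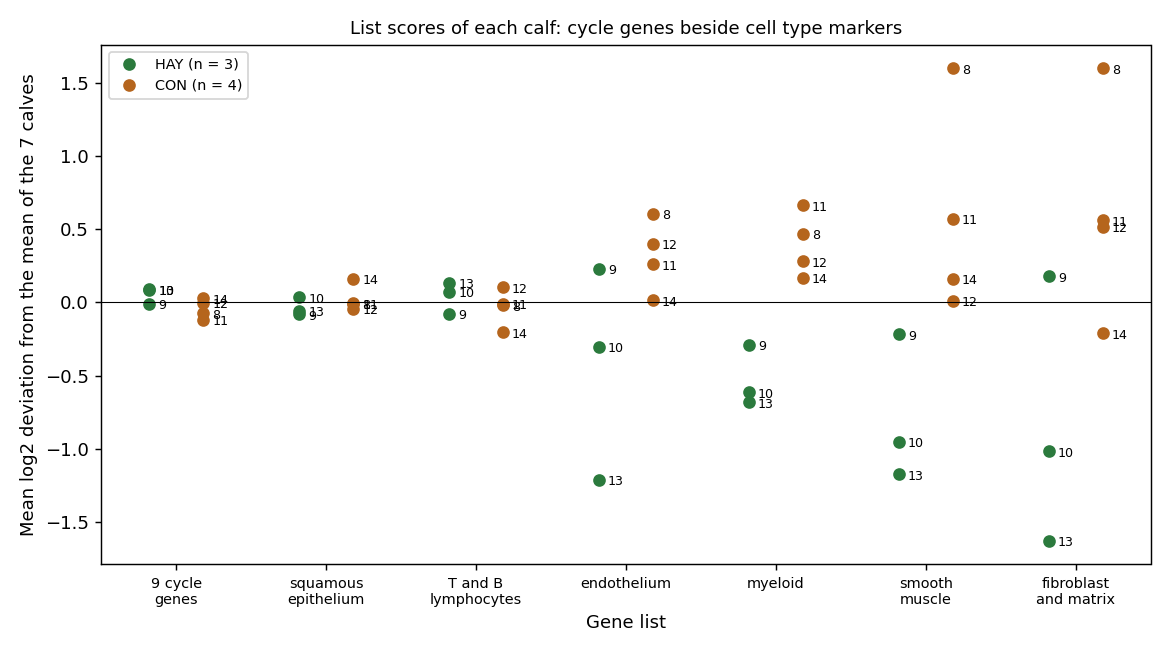
List score (mean log2 deviation from the mean of the 7 calves) of the 9 cycle genes and of 6 marker lists in each HAY calf (green, left) and CON calf (brown, right), with calf numbers. The cycle genes stay between -0.12 and 0.09 while the smooth muscle score runs from -1.17 to 1.60.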

How the data were processed

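Total RNA was labelled with cyanine 3 and hybridised to 7 single-colour arrays on 1 slide, read in 1 scan. The authors' scanner files hold the intensity of each spot, which Agilent Feature Extraction 9.5 had corrected for background and spatial trend (version per the submitters' processing notes, correction per the file headers). A table of the series deposited by the authors has log2 values that equalled the scanner values minus the 75th percentile of each array (SD of the difference at most 0.000352), with column medians of -3.23 to -3.11. Its scale, direction and lack of gene centring were thus settled.

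Control spots and outlier spots were left out, repeat spots averaged as log2, and each array's 75th percentile subtracted. Names were updated through RefSeq accessions (ARS-UCD2.0 table, used for names only), which matched 11194 probes. Probes well above background on at least 3 arrays were kept (12604 probes, 12570 genes, with the brightest probe of a gene). Groups were compared with limma 3.58.1 in R 4.3.3 with Benjamini-Hochberg adjustment over all genes. The fit was tested on simulated data. The 17 alternatives changed background correction, normalization, filter, block, variance model, source of values, probe choice or calves. The genes, lists and tests were chosen with earlier results of these data known. Named genes were the 9 genes, up to 4 genes of smallest p per list and the 5 nearest in pattern. A gene that this rule names is not reported here. The number of arrays limits the precision. Groups come from the labels, and each calf is 1 replicate.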

Additional observations from a re-analysis of the deposited data

Results flagged for a closer look

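In the CON group, calf 14 stood apart from the other 3 calves in PDK4, with a log2 value of -6.17 against -5.20 to -5.11. The gap to the nearest calf was 0.908 of the range of the group, above the 95% critical value of Dixon's test for 4 samples. CON calf 12 stood apart in HSPE1, with 6.22 against 5.84 to 5.91, a gap of 0.836 of the range. These were 2 of 25 genes examined, and chance marks about 1 in 20. None of the 9 cycle genes was among them, and the HAY group of 3 calves was not examined this way.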

How the results depend on the processing

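None of the 9 cycle genes reached an unadjusted limma p under 0.05, or an adjusted one, under any of the 17 alternatives; the smallest unadjusted p was 0.0541 (OGDH without HAY calf 9). CS, IDH3B, OGDH, SUCLG1 and FH kept higher means in HAY in 17 of 17. IDH3A, with a difference of -0.13, kept its sign in 16 of 17. It was 0.034 without CON calf 14, and ran from -0.25 to 0.034 with a calf left out. IDH3G, MDH2 and PDHA1, with differences near 0, kept their signs in 12, 9 and 11 of 17. IDH3G was 0.014 with normexp, 0.043 with median centring, and from -0.13 to 0.057 with a calf left out. MDH2 was 0.059 with median centring, 0.081 with quantile normalization, 0.010 with the slide column as a block, and from -0.13 to 0.087 with a calf left out. PDHA1 was -0.036 with normexp, -0.0048 with the block, and from -0.13 to 0.21 with a calf left out. The count of all genes past the adjusted threshold was 1 to 21 with a calf left out (21 without CON calf 14, 7 without HAY calf 9), 4 with quantile normalization, 2 with the block and 5 without calves 8 and 13. At an unadjusted limma p under 0.05 the count was 1755 in the main fit. It rose to 2344 with HAY calf 9 left out and 2077 with CON calf 14 left out. It fell to 988 with HAY calf 10 left out, 984 with HAY calf 13 left out and 749 with calves 8 and 13 left out. The median of the 9 genes was 0.20 with median centring, which raised the median of all genes to 0.10, and 0.050 to 0.16 with a calf left out. That of the other cycle enzymes was 0.0025 with quantile normalization and 0.054 to 0.24 with a calf left out, that of the pyruvate dehydrogenase list -0.15 with the block and -0.15 to 0.019 with a calf left out, that of the entry and exit list 0.021 to 0.26 with a calf left out, and that of mitochondrial content 0.045 without calves 8 and 13. The cause was not tested. The block leaves out CON calf 8. Fits without a calf hold 2 HAY or 3 CON calves. No paired analysis by calf was possible because the groups share no calf number, and the slide column was the only block that set calves of both groups together.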
